A study of Homo sapiens with 6 samples.

Results

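The comparison was of dexamethasone with vehicle in the MR/GR cell, a stable human line made from the U-2OS osteosarcoma line in which the mineralocorticoid receptor (MR) was present together with the glucocorticoid receptor (GR). Its members were the called peaks of the 6 GR ChIP-seq lists of that line, 3 per treatment, and they numbered 21015 of the 116356 peaks in the 12 lists of the series. The treated cells had received dexamethasone at 100 nM for 2 hr and the control cells DMSO as vehicle, and both groups carried both receptors. The other line of the series, the GR cell, had the same U-2OS origin, and its label names GR without MR. Both lines were studied by ChIP of GR. The sources used here do not say how the receptors were expressed, at which level, or whether the MR/GR line is 1 clone. Nothing in them ties the 3 lists of a treatment to separate cultures, and p-values below therefore cover list-to-list spread alone, part or all of which could be technical.

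GR and MR are closely related steroid hormone receptors. Without hormone they are held largely in the cytoplasm by chaperone proteins, and with hormone they move into the nucleus and bind hormone response elements, DNA sequences that both can recognise and on which they can also pair with each other. Dexamethasone is a synthetic glucocorticoid chosen for its strong action on GR, and most receptor binding in the genome lies in enhancers away from gene starts. A ChIP-seq peak is a stretch of DNA recovered with the GR antibody more often than in input DNA. The deposited lists give only its position, without a height or a score, so every result below is a statement on where peaks were called. Depth is unknown, and a place without a peak may be unbound or may lie under the calling threshold.

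In the MR/GR cell almost all GR peaks were called after ligand. The dexamethasone lists held 3713, 10459 and 6660 peaks, and the vehicle lists 132, 11 and 40. The groups did not overlap: the shortest treated list was 28.1 times as long as the longest vehicle list. Within a group the lists were uneven as well, and treated list 2 was 2.82 times as long as treated list 1. On the log2(peaks + 1) scale the mean rose by 7.31 (SE 1.09, n = 3 lists each), and the two-sided exact permutation test gave p = 0.1, below which a test of this size cannot go. Treated peaks covered 1.04, 2.97 and 2.02 Mb of the genome, and vehicle peaks covered at most 0.0372 Mb. Each list had 1 fixed peak width (280, 284 and 304 bp with dexamethasone, 282, 284 and 294 bp with vehicle). Widths differed by 2.67 bp on average (SE 8.30, exact permutation p = 0.9, two-sided), so the treatments were compared with peaks of nearly the same length.

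**Figure D1:**
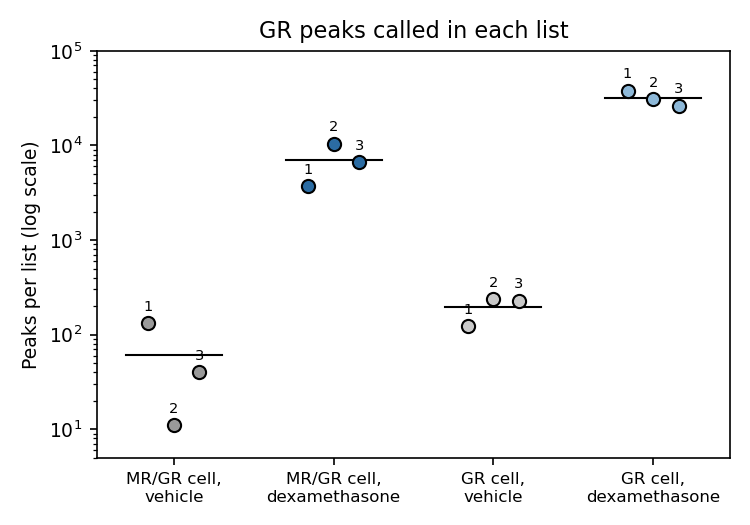
Number of GR peaks in each list (points, numbered by list, log axis) and the mean of the 3 lists (line) for each line and treatment. The 3 treated MR/GR lists sit between 3713 and 10459 peaks, above the 3 vehicle lists at 11 to 132 and below the treated GR-cell lists at 26191 to 37650.

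Merging overlapping peaks of the 6 lists gave 11735 sites. Of these, 5943 (50.6%) were in at least 2 dexamethasone lists and in no vehicle list, and are called induced sites here. The vehicle condition removed only 16 of the 5959 sites in at least 2 dexamethasone lists, so the class rests mainly on agreement of the treated lists. The stricter class of all 3 dexamethasone lists and no vehicle list held 3218 sites (27.4%). The opposite class held 1 site (0.00852%), in at least 2 vehicle lists and in no dexamethasone list. Sites in any vehicle list without a treated peak numbered 82 (0.699%). The short vehicle lists capped both counts: 20 sites were in at least 2 vehicle lists and 160 in any. In the GR cell, treated in the same way, 30138 of 41603 sites (72.4%) were in at least 2 dexamethasone lists and no vehicle list. A site in 1 list alone enters the total but not the class, so both shares depend on how uneven the lists are in length. The number of induced sites was 3311 without treated list 2 and 3458 without treated list 3, when the short list 1 became 1 of the 2 lists required.

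The treated lists were largely nested. List 2 held 93.2% of the sites of list 1 (3461 of 3713) and list 3 held 89.3% of them (3314). List 2 also held 84.4% of the sites of list 3, while list 3 held 53.8% of those of list 2. Paired peaks lay close together, with median distances between centres of 33, 31 and 30 bp for the pairs 1 with 2, 1 with 3 and 2 with 3. Over the 11653 sites with any treated peak, 51.1% were in at least 2 lists (Wilson 95% interval 50.2 to 52.0, counting error only). All 3 lists shared 3220 sites, and lists 2 and 3 shared another 2404. Sites of list 1 with only one partner were few, 241 with list 2 and 94 with list 3.

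The remaining sites, those of a single treated list, came mostly from list 2. It alone held 4594 sites, 39.4% of all treated sites, against 942 for list 3 and 158 for list 1. These sites were also set against the dexamethasone lists of the GR cell, a measurement that the MR/GR lists did not enter. Sites of all 3 MR/GR lists were found in 97.5%, 95.8% and 94.4% of cases in GR-cell lists 1, 2 and 3. For sites of 2 MR/GR lists the shares were 88.7%, 82.7% and 81.5%, and for sites of 1 list 63.8%, 53.2% and 52.4%. The order was the same in each GR-cell list, and the shares of the 3 classes did not overlap. GR-cell peaks were wider than MR/GR peaks (medians 354, 366 and 424 bp), and lists 1 to 3 of that line fell in length from 37650 to 26191 peaks. Sites of more MR/GR lists also hold more peaks that can overlap. The part of width, length and peak number in these shares was not tested.

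Among sites of a single MR/GR list, the source list mattered. Of the sites of list 2 alone, 51.4% were in at least 2 GR-cell lists (Wilson 95% interval 49.9 to 52.8). The share was 77.6% for list 3 alone (74.8 to 80.1) and 51.9% for list 1 alone (44.2 to 59.6). No GR-cell list held 1716 sites of list 2 alone (37.4%), 148 of list 3 alone (15.7%) and 62 of list 1 alone (39.2%). Among sites in all 3 MR/GR lists, 63 (1.96%) were in no GR-cell list. For sites without a GR-cell peak, the median distance to the nearest GR-cell dexamethasone peak was 18.7 kb for the 62 sites of list 1 alone, 14.1 kb for list 2 alone, 12.5 kb for list 3 alone and 8.92 kb for the 63 sites. Within single treated GR-cell lists, peaks were a median of 17.2 to 24.9 kb from their nearest neighbour in the same list. That is a different measure from the distances above, and the values are not directly comparable.

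**Figure D2:**
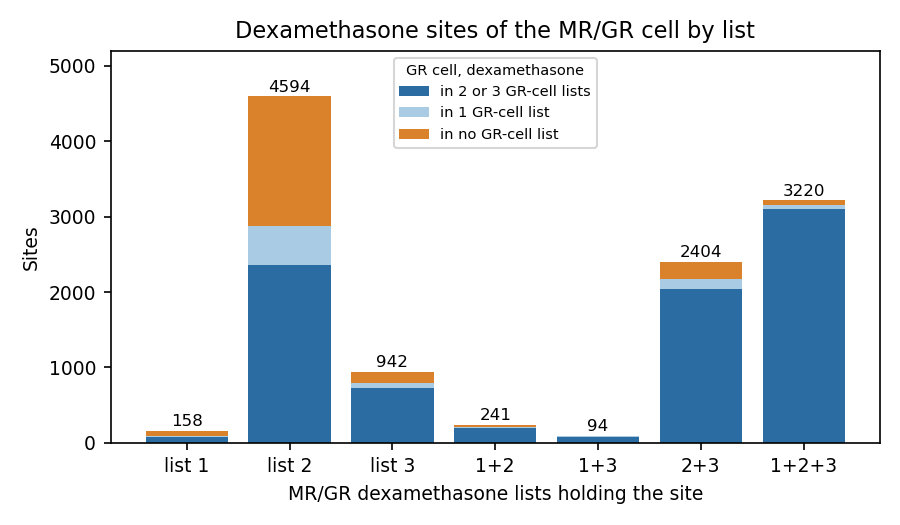
Sites with a treated peak in the MR/GR cell, by the treated lists that held them (horizontal axis), with bar height giving the number of sites and colours the number of GR-cell dexamethasone lists at the same place. List 2 alone has the tallest bar (4594 sites) with the largest portion in no GR-cell list (1716), while nearly all of the 3220 sites in all 3 lists were also in 2 or 3 GR-cell lists.

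Few sites with a vehicle peak were in at least 2 dexamethasone lists (16 of 160), but most were also in only 1 vehicle list. Whether 16 is more or fewer than randomly placed peaks would give was not tested. The vehicle lists marked 160 sites, 140 of them in 1 vehicle list, 17 in 2 lists and 3 in all 3. With dexamethasone, 82 of the 160 had no peak, 62 had a peak in 1 list, 14 in 2 lists and 2 in all 3 lists. Vehicle list 1 shared 20 of its 132 peaks with list 3 and 3 with list 2, and list 2 shared 3 of its 11 peaks with list 3. As a share of the shorter list of each pair, 27.3% to 50% of vehicle sites were shared, against 84.4% to 93.2% of treated sites. The 82 sites without a treated peak, which that choice keeps away from treated sites, had a median distance of 193 kb to the nearest site of at least 2 dexamethasone lists.

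The overlap with vehicle peaks varied with the treated list. Of the 132 peaks of vehicle list 1, treated list 1 held 3 (2.27%), list 2 held 70 (53.0%) and list 3 held 17 (12.9%). Of the 11 peaks of vehicle list 2 they held 1, 6 and 1, and of the 40 peaks of vehicle list 3 they held 2, 19 and 10. Treated list 2 held the most in each vehicle list, with a lead over list 3 of 40.2, 45.5 and 22.5 percentage points. Over all 160 vehicle sites, the treated lists held 3, 75 and 18, or 0.0808%, 0.717% and 0.270% of their own sites, so the lead of list 2 was larger than its 1.57-fold greater length than list 3. Of the 62 vehicle sites found in a single treated list, 59 were in list 2. No batch label is given for the lists, and the part of a batch in this pattern was not tested.

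**Figure D3:**
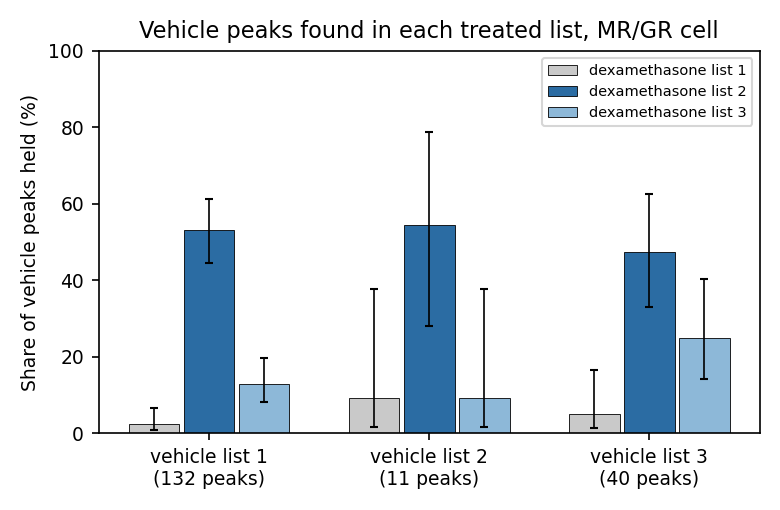
Share of the peaks of each vehicle list (horizontal axis) that each dexamethasone list of the MR/GR cell held, with Wilson 95% intervals for counting error. Treated list 2 held 47.5% to 54.5% of the peaks of every vehicle list, and treated list 1 held 2.27% to 9.09%.

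Recurrent vehicle sites, in at least 2 of 3 vehicle lists, numbered 20. All 20 were in vehicle lists 1 and 3, and 3 were also in list 2. Treated lists 1, 2 and 3 held 2, 17 and 9 of them. One site was present in every list of both treatments: chromosome 3, 119395819 to 119396173 (hg19, counted from 1), which was also in all 3 vehicle and all 3 dexamethasone lists of the GR cell. The other sites of all 3 vehicle lists were chromosome 5, 171433642 to 171434047, and chromosome 20, 36661918 to 36662245. Both had a treated peak in list 2 only and none in the dexamethasone lists of the GR cell. The chromosome 5 site was in 1 vehicle list of the GR cell, and the chromosome 20 site was in none.

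Of the next 7 recurrent vehicle sites, each was in vehicle lists 1 and 3 and in treated lists 2 and 3. Those on chromosome 3 (128879908 to 128880285), chromosome 17 (72510526 to 72511223) and chromosome 19 (4791382 to 4791780) were in 3 dexamethasone lists of the GR cell. The site on chromosome 14 (75643202 to 75643627) was in 2 of them, those on chromosome 7 (63386508 to 63386907) and chromosome 17 (78965405 to 78965784) in 1, and that on chromosome 22 (35887399 to 35887817) in none. Over all 20 sites, 9 were also in a vehicle list of the GR cell and 5 were in no GR-cell list of either treatment. The other 15 had a peak in at least 1 GR-cell list. The single recurrent site with no treated peak was chromosome 20, 62496402 to 62496812, and it was 17.1 kb from the nearest site of at least 2 dexamethasone lists.

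Induced sites were spread over all 23 chromosomes examined, but unevenly. Per 10 Mb of the stretch covered by peaks of the series, the average was 20.2 induced sites and the median chromosome had 19.8. The extremes, picked after the values were seen, were chromosome 22 with 41.5 sites per 10 Mb (146 sites), chromosome 20 with 32.3 (203) and chromosome 17 with 27.7 (224) at the upper end. Chromosome X had 5.79 (88 sites), chromosome 13 had 9.38 (90) and chromosome 21 had 15.3 (59) at the lower end. Chromosome 22 carried 2.56%, 2.32% and 2.40% of the peaks of treated lists 1, 2 and 3, and chromosome X 1.16%, 1.36% and 1.50%. Lists agreed less on chromosome 20, which carried 4.50% of list 1 but 3.24% and 3.33% of lists 2 and 3. The number of copies of each chromosome in this aneuploid line is not given in the sources used here, and its part in these densities was not tested.

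Within chromosomes, induced sites gathered in some stretches. Of 2961 windows of 1 Mb, 932 (31.5%) held no induced site and the median window held 1. Stretches where no peak can be mapped were not set apart, and their part in the empty windows was not tested. Windows with at least 10 induced sites numbered 40, or 1.35% of windows, and carried 459 sites, or 7.73% of those in all windows. The fullest, again picked after the values were seen, was chromosome 20, 49000001 to 50000000, with 18 induced sites, 13 of them in all 3 lists. Treated lists 1, 2 and 3 had 14, 25 and 17 peaks in it, and no vehicle list had any. The vehicle lists held 183 peaks in all, against 2961 windows, so most windows had none. The fullest window was followed by chromosome 20, 46000001 to 47000000, with 17 sites, and chromosome 2, 28000001 to 29000000, with 16. These windows also held 29, 29 and 36 dexamethasone sites of the GR cell, in the order given. That line had more sites throughout, 30365 in at least 2 dexamethasone lists against 5959 in the MR/GR cell. The mean window held 2.01 induced sites, and the mean for the GR cell was not computed.

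The spacing of sites was next examined. Sites in at least 2 dexamethasone lists lay a median of 72.7 kb from the nearest other (quartiles 16.9 and 225 kb), and the closest pair was 648 bp apart. Within any list no centres were closer than 613, 567 and 600 bp in lists 1, 2 and 3, so finer spacing could not be seen. Of the 5959 sites, 1040 (17.5%, Wilson 95% interval 16.5 to 18.4) had another within 10 kb, and for 211 (3.54%) the nearest lay more than 1 Mb away. Sites of all 3 lists were 62.3 kb from the nearest site of at least 2 lists, sites of 2 lists 85.9 kb, and sites of 1 list 99.1 kb (medians).

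Spacing was also compared between treatments, and the result depended on the distance chosen. The share of peaks with another peak of the same list within 10 kb was 15.3%, 23.5% and 17.3% in the treated lists. In the vehicle lists it was 0 of 132 peaks, 2 of 11 peaks and 0 of 40 peaks. The pair in vehicle list 2 lay on chromosome 19, at 54695145 to 54695428 and 54695939 to 54696222, and its 794 bp spacing put that list within the treated range. The difference of 12.6 percentage points (SE 6.54) had an exact permutation p of 0.3 (two-sided). Without vehicle list 2 it was 18.7 points, with every treated list above the other vehicle lists. With neighbours within 25 kb the difference was 26.2 points and within 50 kb it was 36.2 points. At both distances every treated list was above every vehicle list (exact permutation p = 0.1, two-sided, the lowest within reach). These shares depend on list length, and peaks of the short vehicle lists were a median of 3499, 56943 and 9484 kb from their nearest neighbour. Spacing and peak number therefore cannot be told apart in this comparison of treatments.

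**Figure D4:**
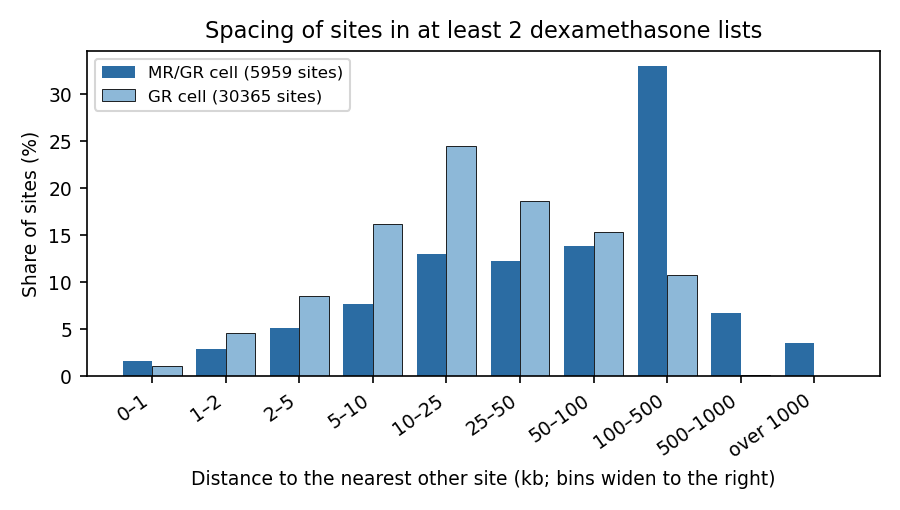
Share of sites by distance to the nearest other site of the same line, for sites in at least 2 dexamethasone lists of the MR/GR cell (5959) and of the GR cell (30365). Bins are unequal in width. The MR/GR cell had most sites at 100 to 500 kb (32.99%), the GR cell at 10 to 25 kb (24.5%).

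Against the treated GR cell, the peaks of the treated MR/GR cell were farther apart. Shares of peaks with a neighbour within 10 kb were 35.1%, 30.9% and 26.1% in the GR-cell lists, each above those of the MR/GR cell. The difference was -12.0 percentage points (SE 3.60, n = 3 lists each, exact permutation p = 0.1, two-sided, and no lower p was within reach). List length moved with it: across the 6 treated lists the share rose with every step in length, from 15.3% at 3713 peaks to 35.1% at 37650. Spacing and peak number cannot be told apart in these lists. With neighbours within 5 kb the difference was -4.11 points, with overlapping groups (exact permutation p = 0.2, two-sided). Within 25 kb it was -23.2 points and within 50 kb -29.7 points, with no overlap at either distance (exact permutation p = 0.1, two-sided).

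Sites linked by steps of at most 10 kb formed 484 clusters of 2 or more, and 4919 sites stood alone. Clusters of 2 numbered 426 and clusters of 3 numbered 47, and 11 clusters had 4 or more sites. Sites in clusters were in all 3 lists in 60.9% of cases (633 of 1040) and lone sites in 52.6% (2587 of 4919). The gap lay in list 1, which held 68.3% of clustered and 57.8% of lone sites. That place follows largely from the class, since sites of at least 2 lists were nearly all in the longer lists 2 and 3. In lists 2 and 3 the shares were 98.2% against 98.5% and 94.4% against 96.3%. In the GR cell the order was the other way: its lists 1, 2 and 3 held 91.7%, 88.6% and 84.7% of clustered sites and 93.9%, 90.04% and 89.2% of lone ones.

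The 10 leading clusters held 43 sites, of which 36 were in all 3 treated MR/GR lists and 37 in all 3 treated GR-cell lists. The first count is 83.7% of the sites, against 54.0% of all sites of at least 2 dexamethasone lists, and the second is 86.0%, against 86.4%. None of the vehicle lists of this line had a peak in any of them. That sets them little apart, since only 16 of all 5959 sites of at least 2 dexamethasone lists had a vehicle peak. The clusters are given by position (hg19), since genes were not assigned here. They were picked for holding the most sites and then the most treated peaks, which favours sites of 3 lists, so the 36 are a description.

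The largest cluster lay on chromosome 11, 114025196 to 114050314, with 6 sites over 25.1 kb. Each of lists 1, 2 and 3 had 6 peaks there, and each GR-cell dexamethasone list also had 6. Steps between its sites ranged from 1.10 to 7.92 kb. Its closest pair was the site at 114033585 to 114033896 with the site at 114034693 to 114034996, each with 15 treated peaks within 10 kb. Every treated list therefore resolved both members of that pair.

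The second cluster, on chromosome 6 at 35683212 to 35699982, had 5 sites in 16.8 kb, again with all sites in every treated list of both lines. Its site at 35690226 to 35690537 also had 15 treated peaks within 10 kb. Of the 10 clusters it alone had peaks in the untreated GR cell. Its site at 35695732 to 35696042 was in 2 GR-cell vehicle lists and that at 35699645 to 35699982 in 1, whereas no MR/GR vehicle list had a peak there. The GR-cell vehicle lists were longer as a group (122, 238 and 228 peaks), and the difference at this place was not tested.

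Complete agreement was also seen in a cluster on chromosome 4 (55882053 to 55904766) and in a pair on chromosome 10 (74002383 to 74015185 and 79629770 to 79641794). Those 3 clusters had 4 sites apiece, all in 3 treated lists. In the first of the pair, the site at 74008600 to 74008903 had 13 treated peaks within 10 kb. In the second, the sites at 79632037 to 79632512 and 79633344 to 79633703 lay 1.25 kb apart at their centres and had 12 each. Its first site, 79629770 to 79630150, was in 2 of 3 GR-cell lists. Among all 3218 sites of 3 dexamethasone lists and no vehicle list, the median was 3 treated peaks within 10 kb, and 69.7% had no peaks but their own 3.

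The other 5 clusters, also of 4 sites each, were not complete. On chromosome 2 (28849720 to 28867043) list 3 lacked the site at 28856858 to 28857175, and the site at 28866713 to 28867043 was in all 3 MR/GR lists but in 1 GR-cell list. On chromosome 12 (76653576 to 76670970) list 1 lacked 1 of the 4 sites. On chromosome 9 (93682187 to 93699063) and chromosome 11 (102171824 to 102191689) list 1 lacked 2 of 4, and lists 2 and 3 held all. In these last 2 clusters, without list 2 or without list 3, 2 sites remained.

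The cluster on chromosome 5 (16883829 to 16897866) stood apart in the GR cell. Treated MR/GR lists 1, 2 and 3 had 3, 4 and 4 peaks in it. GR-cell dexamethasone lists 1, 2 and 3 had 5, 5 and 1, and none of its 4 sites was in all 3 GR-cell lists. It was the only one of the 10 clusters with no site in all 3 GR-cell lists, and the shortfall was in GR-cell list 3, the shortest of that group.

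**Figure D5:**
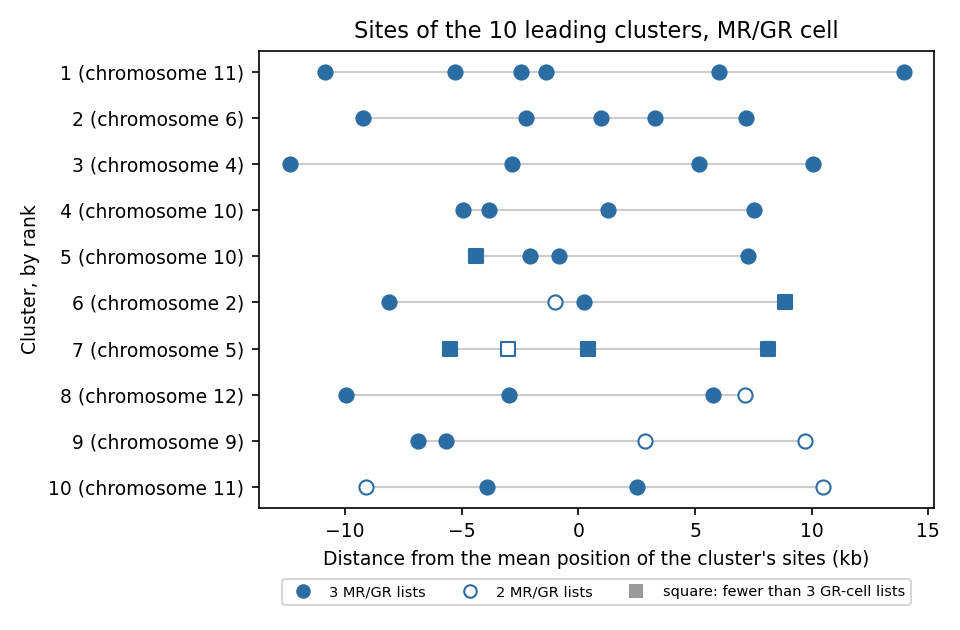
Positions of the 43 sites in the 10 leading clusters of the MR/GR cell, as distance from the mean position of each cluster's sites. Filled symbols are sites in all 3 treated MR/GR lists (36) and open ones in 2 lists, and squares are sites in fewer than 3 GR-cell lists, among them all 4 sites of the cluster on chromosome 5.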

How the data were processed

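GR ChIP-seq of the MR/GR cell with vehicle or dexamethasone (3 peak lists each) was analysed, with the 6 GR-cell lists for comparison. The authors deposited peak lists with a chromosome, start and end, and no score. The submitters' processing notes name HOMER 4.8.3, Picard 1.115, Bowtie, SAMtools 1.3.1 and Trim Galore 0.4, with hg19 as the build; roles, settings and the calling threshold are not given in the sources used here. List numbers come from the deposited lists, not from the labels. Input DNA was not analysed here. Its labels give a dose of 100 nM for the GR cell and 0 nM for the MR/GR cell.

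Sites were peaks merged over the 6 MR/GR lists where they overlapped by at least 1 bp, and another list held a site when its peak overlapped it. Distances were between centres. Groups were compared by exact permutation tests, two-sided, over 20 arrangements, and Wilson 95% intervals of shares reflect counting error alone. Python 3.11.15, numpy 2.4.6, pandas 2.3.3 and SciPy 1.17.1 were used. The number of merged sites equalled that from bedtools 2.31.1. Merging was also tested on simulated lists of well separated sites with small shifts, which did not cover chained or closely spaced peaks.

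Named were the 10 clusters with the most sites of at least 2 dexamethasone lists, linked at up to 10 kb, and the 10 sites of 3 dexamethasone and no vehicle lists with the most treated peaks within 10 kb. Also named were the first 10 vehicle sites of at least 2 lists. Ties were broken by peaks or lists and then by position, and left out 1 of 9 clusters of 4 sites and 2 of 8 sites with 12 peaks. The members and these rules were chosen with earlier results of these data known. Genes, gene starts and motifs were not analysed here, since no hg19 sequence or annotation was used. Alternatives were other overlap criteria, numbers of lists and distances, main chromosomes alone, a pseudocount of 0.5, merged neighbouring peaks, the list number as a block, and each list left out in turn.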

Additional observations from a re-analysis of the deposited data

How the results depend on the processing

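Of 96 alternatives for the main results, 52 kept the result, 43 moved it and 1 reversed it. Kept means for tests the direction and side of 0.05, for counts a ratio within 1.5, for shares of sites a value inside their 95% interval and for shares over lists a move under 1 SD. Tests here cannot pass 0.05, so only a sign change could move them, raising the 52 kept. With 1 list left out, the response in peaks ranged from 6.43 to 8.17 (log2), the spacing difference from vehicle from 9.61 to 18.7 points and that from the GR cell from -14.4 to -9.81 points. The difference in peak width ranged from -4.67 to 7.33 bp, negative without treated list 3. Induced sites numbered 11575 with at least 1 list and 3218 with all 3, and 3311 to 5951 with 1 list left out. The share of treated sites in at least 2 lists, 51.1%, was 46.7% with centres at most 100 bp apart, 49.96% with overlap of at least 50% of the shorter peak and 32.3% to 48.9% with 1 list left out (32.3% without list 3). The share with another within 10 kb, 17.5%, was 9.73%, 30.5% and 42.7% at 5, 25 and 50 kb, 25.3% for sites of at least 1 list, 13.3% for sites of all 3, and 13.6% to 15.9% with 1 list left out. Shares held by the GR cell were 55.7%, 84.4% and 96.4% for sites of 1, 2 and 3 MR/GR lists. They were 66.2%, 90.1% and 98.04% with at least 1 GR-cell list and 47.5%, 78.3% and 93.3% with all 3, and 49.7% for sites of 1 list with centres at most 100 bp apart. With 1 list left out they ranged from 47.9% to 81.3%, 78.5% to 96.05% and 93.5% to 95.5%; without treated list 2, sites of 1 list reached 81.3%. Vehicle peaks at sites of at least 2 dexamethasone lists, 13.7% ± 5.63 (SD, n = 3 lists), were 54.7% with at least 1 list, 4.37% with all 3, and 4.37% to 16.1% with 1 list left out. The cause was not tested.

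With 1 list left out, the site count of a named cluster was unchanged in 20 of 30 cases and fell by at most 2; the clusters on chromosomes 9 and 11 (102171824) had 2 sites without treated list 2 or 3. Under the 100 bp centre limit, list counts of 19 of the 20 named sites and vehicle sites were unchanged; dropping a list can only move them by 1. Deviations in chromosome shares of same-numbered lists correlated at -0.395, -0.0822 and -0.528, but 11 to 132 vehicle peaks are too few to show pairing. Using list numbers as a replicate block left the response in peaks at 7.31 (exact sign-flip p = 0.25, two-sided). Comparing treated list 2 with the others at vehicle peaks, and clustered with lone sites, was chosen after seeing the data. The lead of list 2 over list 3, 36.04 points, ranged from 31.3 to 42.8 with 1 vehicle list left out, and the excess of clustered sites in all 3 lists, 8.27 points, from 6.08 to 8.14 at other distances. Promoter and motif results were not run.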
